A study of Mus musculus with 24 samples.

Results

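Pou5f1 (which encodes OCT4), Sox2, Klf4 and Myc are the genes of the reprogramming factors that drove these mouse cells from neural progenitors towards pluripotency. They were taken by name from the table of normalized read counts, where they are 4 of 37315 genes, and followed through 12 cell populations of 2 libraries each. Every population value below is the mean of 2 libraries. A library's value is a normalized count, which is the number of reads assigned to the gene divided by the library's size factor.

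OCT4 is a POU-domain factor and SOX2 an HMG-box factor. Together they bind composite octamer and SOX sites in the enhancers of pluripotency genes, many of which also carry KLF4, a zinc-finger factor. MYC is a basic helix-loop-helix factor that pairs with MAX on E-boxes and drives ribosome biogenesis, metabolism and cell division. Embryonic stem cells keep OCT4, SOX2 and KLF4 on. Neural progenitors keep SOX2 and silence Pou5f1, so a cassette that supplies all of the factors adds to a progenitor that already makes SOX2.

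The cells were the PaX line, a female hybrid of M. musculus and M. castaneus with an X-GFP reporter in Hprt on the musculus X chromosome, a Nanog promoter-RFP reporter, a truncated Tsix, and a doxycycline-inducible MKOS cassette (cMyc, Klf4, Oct4, Sox2) placed with the rtTA transactivator in the Sp3 locus. Embryonic stem cells (ESCs) grown in serum and LIF, neural progenitor cells (NPCs) sorted as negative for SSEA1, Nanog-RFP and X-GFP, and cells at days 2, 5 and 7 of reprogramming were sequenced. The reprogramming cells received doxycycline and ascorbic acid from 1 day before day 0, were seeded on irradiated male fibroblast feeders in medium with LIF, and were left untreated (control) or given interferon gamma (IFNγ) at 10 ng/ml from day 0 to day 5. Day 2 cells were sorted against CFSE-stained feeders, day 5 cells for the surface marker SSEA1, and day 7 SSEA1+ cells were split into X-GFP negative, medium and high fractions. The study uses this reporter to trace activity of the musculus X chromosome, which was not measured here. All populations come from the same engineered line, so ESCs and NPCs also carry the cassette. Doxycycline is not named for the ESC and NPC samples in the sources used here. The study's methods call the replicates independent without saying whether they were separate cultures or sorts, and the p-values below measure only the spread between these libraries.

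The libraries held 24746109 to 37056508 reads assigned to genes, with a median of 28332222.5. The labelled cell types were checked against their defining markers. The summed count of 8 NPC markers (among them Nes and Pax6) was 50152 and 45803 in NPCs against 807 and 872 in ESCs, and that of 8 ESC markers (among them Nanog and Esrrb) was 155425 and 151177 in ESCs against 148 and 90.5 in NPCs. At day 2 the NPC marker sum was still 13521 to 19214 and the ESC marker sum 1194 to 1639. Signs of the male feeders stood out at day 2. The sum of 4 Y-linked genes was 253 and 218 in day 2 control libraries and 125 and 223 in day 2 IFNγ libraries, against 0 to 12.5 in all other libraries. The sum of 8 fibroblast markers was 61408 and 41396 in day 2 control and 30729 and 25195 in day 2 IFNγ, with none of the 8 at 0, but it was also 30196 and 43108 in NPCs, which were not grown on the male feeders. These sums are printed again beside the day 2 comparisons.

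In the mm10 (GRCm38) assembly with GENCODE vM21, Pou5f1 (ENSMUSG00000024406) lies at chr17:35506018-35510772 on the plus strand, Sox2 (ENSMUSG00000074637), a gene of a lone exon, at chr3:34650405-34652461 on the plus strand, Klf4 (ENSMUSG00000003032) at chr4:55527143-55532466 on the minus strand, and Myc (ENSMUSG00000022346) at chr15:61985391-61990374 on the plus strand. Their coding sequences hold 1056, 957, 1449 and 1362 bases. The cassette carries the coding sequences of these genes, and the table gives a lone count per gene, so reads of the cassette and of the endogenous gene cannot be told apart in any value below. In a sorted population, a smaller share of expressing cells and less RNA in each cell cannot be told apart either. An antisense gene, Gm19553, shares 317 exon bases with Pou5f1 and had a mean count of 4.07 over the libraries, and whether the counting used strand is not given in the sources used here.

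The windows just upstream of the endogenous start sites are shown because they belong to the endogenous genes and not to the cassette, which is driven by its own doxycycline-responsive promoter. Each is the 250 bases before a RefSeq start (GRCm38.p6), printed 5′ to 3′ on the gene's strand, with matches to 6 short motifs in capitals. The set of starts used held none for Myc, so no Myc window was searched. It held 2 for Pou5f1, of which the one nearest the GENCODE gene start was taken. Both strands were searched for the octamer ATGCAAAT, the SOX core CATTGT, the GC box GGGCGG (a letter pattern that KLF and SP factors can bind), the E-box CACGTG, the interferon-gamma-activated (GAS) pattern TTCNNNGAA and the interferon response factor (IRF) pattern GAAANNGAA. The first window is chr17:35505782-35506031, the second chr3:34649745-34649994, which ends at a RefSeq start 410 bases upstream of the GENCODE gene start, and the third chr4:55532476-55532725.
Pou5f1: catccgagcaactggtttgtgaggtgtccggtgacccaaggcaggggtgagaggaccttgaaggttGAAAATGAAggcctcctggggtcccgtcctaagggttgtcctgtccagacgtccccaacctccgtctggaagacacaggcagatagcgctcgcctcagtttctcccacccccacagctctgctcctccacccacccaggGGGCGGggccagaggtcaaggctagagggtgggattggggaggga
Sox2: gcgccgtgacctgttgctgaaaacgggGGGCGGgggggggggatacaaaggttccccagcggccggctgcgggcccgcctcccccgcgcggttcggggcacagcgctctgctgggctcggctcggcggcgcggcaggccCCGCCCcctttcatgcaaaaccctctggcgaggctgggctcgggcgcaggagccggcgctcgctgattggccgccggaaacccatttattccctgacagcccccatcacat
Klf4: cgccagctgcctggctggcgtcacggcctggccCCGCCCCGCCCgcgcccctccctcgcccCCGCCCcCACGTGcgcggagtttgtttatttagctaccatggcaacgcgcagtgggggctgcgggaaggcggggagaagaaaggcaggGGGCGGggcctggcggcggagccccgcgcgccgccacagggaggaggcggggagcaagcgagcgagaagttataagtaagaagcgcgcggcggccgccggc

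The Pou5f1 window held 1 GC box, 39 bases before the start, and 1 match to the IRF pattern, 175 bases before it. The Sox2 window held 2 GC boxes. The Klf4 window held 4 GC boxes, of which an adjacent pair overlap, and 1 E-box. Neither the octamer, the SOX core nor the GAS pattern was matched in any of the 3 windows. Over 32851 windows of the same length, 32.7% held a GC box, 7.13% the IRF pattern, 7.02% the GAS pattern, 6.02% the E-box, 10.7% the SOX core and 1.60% the octamer, and GAS and IRF matches can share letters. A match is a description of letters and not a bound site.

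The starting populations differed in which factor transcripts they held. Pou5f1 RNA was all but absent from NPCs: counts were 2.92 and 5.27 in the NPC libraries, from 3 and 6 reads, against 24654 and 24376 in ESCs. Klf4 counts were 97.2 and 153 in NPCs against 4602 and 4696 in ESCs. Sox2 was high in both, with 8005 and 6399 in NPCs and 8885 and 8433 in ESCs. Myc went the other way, with counts of 92.4 and 121 there and 178 and 345 in NPCs. The libraries of ESCs and NPCs did not overlap for any of the genes. Differences were tested with limma on log2(normalized count + 1) across all genes of a comparison, and a gene was called changed at a Benjamini-Hochberg adjusted p under 0.1. On that scale ESCs exceeded NPCs by 12.27 for Pou5f1 (adjusted p = 2.02e-06) and by 5.24 for Klf4 (adjusted p = 6.11e-06), and were lower by 1.22 ± 0.36 (SE) for Myc (adjusted p = 0.0163). Sox2 was 0.27 higher in ESCs (95% interval -0.0014 to 0.55, adjusted p = 0.0612). In this comparison 85.6% of all genes tested were called, so calls of all 4 members stand near the background. The Sox2 call was lost without ESC replicate 1, ESC replicate 2 or NPC replicate 2 (adjusted p = 0.340, 0.238 and 0.159) and after rescaling every library to the same total (0.15, adjusted p = 0.252), and the Myc call without ESC replicate 1 or 2 (adjusted p = 0.198 and 0.118).

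By day 2 of reprogramming 3 of the 4 genes had risen and Sox2 had not. Pou5f1 counts were 8739 and 8204 in day 2 control cells, Klf4 counts 6611 and 6840, and Myc counts 6177 and 6478. Sox2 counts were 5400 and 6184, below both NPC libraries. For Pou5f1 the rise was from 9 reads in both NPC libraries (95% exact Poisson interval 4.12 to 17.1, counting error only) to 16848 reads, a 2030-fold increase per read sequenced (1069 to 4439). For Klf4 the ratio of population means was 53.8, and for Myc 24.2. The tests called Pou5f1, Klf4 and Myc higher (adjusted p = 2.60e-05, 3.28e-05 and 9.94e-05) and Sox2 lower by 0.31 on the log2 scale (95% interval -0.62 to 0.002, adjusted p = 0.0767), with 69.2% of all genes called. The Sox2 call was made in 5 of 12 alternative fits, and it was lost without NPC replicate 1, day 2 control replicate 1 or day 2 control replicate 2 (adjusted p = 0.222, 0.396 and 0.161). Y-linked sums in the day 2 control libraries were 253 and 218 and fibroblast marker sums 61408 and 41396, and their part in these results was not tested.

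A longer transcript gathers more reads, and the annotated exons of Pou5f1, Sox2, Klf4 and Myc hold 2248, 2057, 3049 and 2717 bases, more than their coding sequences. Levels of different genes were compared per kilobase of coding sequence, the part that the cassette carries, which leaves out the other exon bases of the endogenous genes. On that scale, the gain from NPCs to day 2 control was 4555 ± 81.1 (SE) for Klf4, 4454 ± 126 for Myc and 8019 ± 253 for Pou5f1. The gains of Klf4 and Myc differed by less than their errors, while that of Pou5f1 was larger. Sox2 changed by -1474 ± 934, so the summed Sox2 signal did not gain what the other 3 gained. How much of the Sox2 signal at day 2 came from the cassette and how much from the NPC's own gene cannot be told apart.

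Between day 2 and day 5 of control reprogramming all 4 members were called higher, where 70.6% of all genes were called. The rise was led by Pou5f1, whose counts reached 25634 and 23601, or 100.4% of the ESC mean. Its fitted change was 1.54 (95% interval 1.38 to 1.70, adjusted p = 5.72e-06). Klf4 counts reached 9849 and 8833 (0.47 on the log2 scale, adjusted p = 0.000905) and Myc counts 9666 and 8399 (0.51, adjusted p = 0.0011). Sox2 counts of 6635 and 6915 gave a change of 0.23 (adjusted p = 0.0357), which was not called without day 2 control replicate 1 or day 5 control replicate 2 (adjusted p = 0.199 and 0.134), nor after rescaling to the same total (0.10, adjusted p = 0.309). Per kilobase of coding sequence, Pou5f1 gained a further 15289 ± 995, against 1805 ± 359 for Klf4, 1986 ± 478 for Myc and 1028 ± 435 for Sox2. Klf4 and Myc again moved by the same amount within their errors, and Pou5f1 by several times more. Feeder marks fell over the same step, from Y-linked sums of 253 and 218 to 5.89 and 2.66, and the day 2 to day 5 contrast also spans a change from CFSE-based to SSEA1-based sorting, which cannot be told apart from time.

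**Figure D1:**
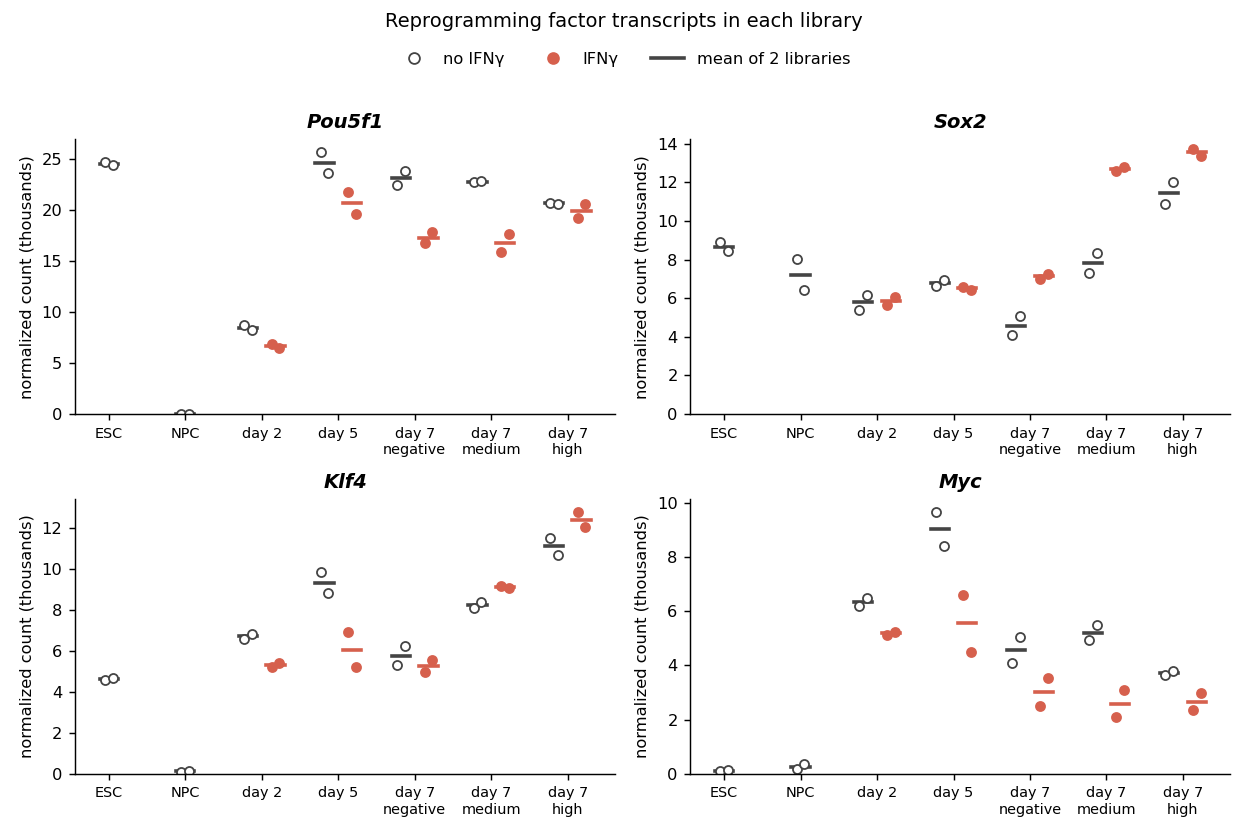
Normalized counts of Pou5f1, Sox2, Klf4 and Myc in each of the 24 libraries, by population, with points for libraries and a line at the mean of each pair. Pou5f1 climbed from 2.92 and 5.27 in NPCs to ESC-like counts at day 5, Sox2 stayed between 4090 and 13738 in every library, and Myc in reprogramming cells lay above both ESCs and NPCs.

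At day 7 the fractions were compared in the order of their X-GFP signal. From day 5 to the X-GFP negative fraction, 3 of the 4 members were called lower, against 63.7% of all genes called in either direction. Myc counts fell to 4100 and 5061 (-0.98, adjusted p = 0.000216), Klf4 counts to 5312 and 6223 (-0.70, adjusted p = 0.000429) and Sox2 counts to 4090 and 5076 (-0.57, adjusted p = 0.00177). Pou5f1 counts of 22417 and 23807 overlapped those of day 5 (-0.09, 95% interval -0.24 to 0.06), and Pou5f1 was called lower after rescaling (-0.17, adjusted p = 0.0609). The X-GFP negative control fraction thus held the lowest Sox2 of all 12 populations, at 52.9% of the ESC mean.

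From the X-GFP negative to the medium fraction, Sox2 and Klf4 rose, where 47% of all genes were called. Sox2 counts were 7327 and 8337 in the medium fraction (0.78, adjusted p = 7.54e-05) and Klf4 counts 8111 and 8409 (0.52, adjusted p = 0.000171). Both genes stood above both X-GFP negative libraries. Myc counts of 4937 and 5483 overlapped those of the negative fraction (0.19, adjusted p = 0.104), and it was not called. Myc was called higher in 6 of 11 alternative fits, among them DESeq2 (adjusted p = 0.0972), edgeR (0.0683), rescaling to the same total (0.27, adjusted p = 0.0442), and limma without X-GFP negative control replicate 2 or medium control replicate 1 (adjusted p = 3.24e-07 and 0.0523). Pou5f1 counts of 22692 and 22808 lay within the span of the negative fraction (-0.02, 95% interval -0.13 to 0.08).

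From the medium to the high fraction all 4 members were called, in opposite directions, against 64.1% of all genes. Sox2 rose to 10874 and 12024 (0.55, adjusted p = 1.60e-06) and Klf4 to 11527 and 10704 (0.43, adjusted p = 2.18e-06). Myc fell to 3627 and 3806 (-0.49, adjusted p = 2.72e-06) and Pou5f1 to 20705 and 20560 (-0.14, adjusted p = 0.00985). No libraries of the medium and high fractions overlapped for any of the 4. In a limma fit of all 24 libraries the Myc and Pou5f1 calls were lost (adjusted p = 0.129 and 0.405). Sox2 and Klf4 were therefore higher in each step of rising X-GFP signal in control cells, whereas Pou5f1 moved little and Myc was lowest in the high fraction. These steps share the medium libraries and are not independent of each other.

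The X-GFP high cells were then set against ESCs, the pluripotent reference. All 4 members differed from the control high fraction, as did 75.8% of all genes, and all 4 from the IFNγ-treated high fraction, as did 67.1%. Both comparisons share the ESC libraries. Myc stood furthest from the reference, with 3627 and 3806 counts in control high cells and 92.4 and 121 in ESCs (-5.12 in ESCs, 95% interval -5.36 to -4.88, adjusted p = 5.99e-13), and with 2335 and 2981 in IFNγ-treated high cells (-4.63, adjusted p = 1.12e-09). Klf4 was 239% of the ESC mean in control high cells and 267% in IFNγ-treated high cells (ESC differences -1.26 and -1.42, adjusted p = 1.51e-10 and 1.68e-08). Sox2 was 132% and 157% of the ESC mean (-0.40 and -0.65, adjusted p = 2.25e-05 and 7.48e-06). Pou5f1 was nearest to the reference, at 84.2% and 81.2% of the ESC mean (0.25 and 0.30, adjusted p = 0.000321 and 0.0037), and the first of these was not called in the fit of all 24 libraries (adjusted p = 0.106).

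Ordered by level, each factor had its own rank of populations. Pou5f1 was highest in day 5 control, ESCs and the X-GFP negative control fraction, and lowest in NPCs and both day 2 populations. Sox2 was highest in the IFNγ-treated high and medium fractions and lowest in the X-GFP negative control fraction. Klf4 was highest in the IFNγ-treated and control high fractions and lowest in NPCs and then ESCs. Myc was highest in day 5 control, then day 2 control, and lowest in ESCs and then NPCs. Neighbours in these orders often could not be separated by their libraries. For Pou5f1 the libraries of day 5 control overlapped those of ESCs, and for Klf4 those of day 5 control overlapped those of the IFNγ-treated medium fraction. For Sox2 the medium control fraction overlapped NPCs and for Myc the day 2 control libraries overlapped those of day 5 IFNγ.

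Ratios between members showed how the factors moved against each other within a library, where the size factor cancels. Per kilobase of coding sequence, the Klf4 to Myc ratio was 1.01 and 0.992 in the day 2 control libraries and 0.958 and 0.989 in those of day 5 control. It was 0.964 in day 2 IFNγ and 1.04 in day 5 IFNγ cells, against 41.7 in ESCs and 0.465 in NPCs. Klf4 and Myc thus stood close to 1 to 1 at days 2 and 5 in both conditions. Per kilobase of exons the ratio was 0.947 in day 2 control, 0.914 in day 2 IFNγ, 0.923 in day 5 control and 0.983 in day 5 IFNγ cells. The day 7 values that follow are again per kilobase of coding sequence. At day 7 the ratio rose from 1.19 in the negative to 1.49 in the medium and 2.82 in the high control fraction, and from 1.67 to 3.45 and 4.48 in the same fractions after IFNγ. From the medium to the high control fraction higher Klf4 went with lower Myc, while from the negative to the medium fraction Klf4 was higher and Myc overlapped.

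Relative to Pou5f1, Klf4 went from 0.579 at day 2 to 0.276 at day 5 and 0.182 in the day 7 negative control fraction, then back up to 0.265 and 0.393 in the medium and high fractions. The ESC ratio was 0.138, so no reprogramming population reached it. Sox2 relative to Klf4 lay between 1.02 and 2.13 in all reprogramming libraries, against 2.92 and 2.72 in ESCs and 125 and 63.4 in NPCs.

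**Figure D2:**
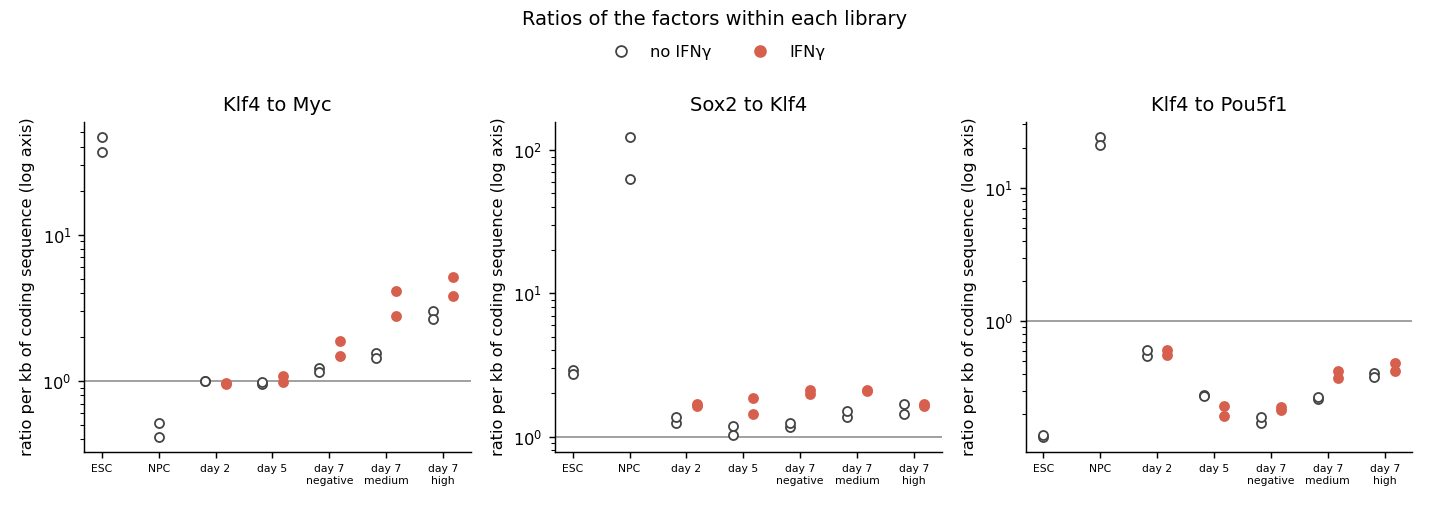
Ratios of normalized counts per kilobase of coding sequence (log axis) for Klf4 to Myc, Sox2 to Klf4 and Klf4 to Pou5f1 in each library of the 12 populations. Klf4 to Myc lay between 0.958 and 1.01 in the day 2 and day 5 control libraries and rose across the day 7 fractions, to a mean of 4.48 in IFNγ-treated high cells.

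IFNγ was given during the first days to ask how early exposure changes reprogramming and X-reactivation. At day 2, with IFNγ present, 3 of the 4 members were lower and Sox2 was not, against 8.49% of all genes called. Pou5f1 counts were 6831 and 6475 against 8739 and 8204 in controls (-0.35, 95% interval -0.49 to -0.21, adjusted p = 0.0232). Klf4 counts were 5201 and 5421 against 6611 and 6840 (-0.34, adjusted p = 0.0180), and Myc counts 5128 and 5229 against 6177 and 6478 (-0.29, adjusted p = 0.0304). Each of these treated pairs lay below both controls, at fitted folds of 0.785, 0.790 and 0.819. Sox2 counts of 5647 and 6070 fell within the control span (0.02, 95% interval -0.17 to 0.21). Pou5f1 was not called without day 2 IFNγ replicate 2 (adjusted p = 0.116), nor Myc without day 2 control replicate 2, IFNγ replicate 1 or IFNγ replicate 2 (adjusted p = 0.111, 0.120 and 0.117), and a limma fit of all 24 libraries called 0 of the members. Y-linked sums were 125 and 223 in the treated and 253 and 218 in the control libraries, and fibroblast marker sums 30729 and 25195 against 61408 and 41396. NPC marker sums were 17460 and 19214 in the treated and 13521 and 17108 in the control libraries, with 2 of the 8 genes, Slc1a3 (1.24) and Pax6 (0.64), called higher and 0 lower (1 higher without day 2 control replicate 1 or either IFNγ library). The part of these feeder and NPC signs in the result was not tested.

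At day 5, the end of the IFNγ treatment, limma called 0 of the 4 members among 2.18% of all genes, with 3 of the 4 at an unadjusted p under 0.05. Klf4 counts were 6936 and 5197 against 9849 and 8833 in controls (-0.64, 95% interval -0.96 to -0.31, adjusted p = 0.102). Myc counts were 6587 and 4504 against 9666 and 8399 (-0.73, 95% interval -1.13 to -0.32, adjusted p = 0.122), and Pou5f1 counts 21757 and 19614 against 25634 and 23601 (-0.25, adjusted p = 0.191). The treated libraries lay below the controls for all of these, and the treated pair was spread widely for Klf4 and Myc. Sox2 counts were 6584 and 6433 against 6635 and 6915 (-0.06, 95% interval -0.21 to 0.10). On the recovered reads DESeq2 called Klf4 and Myc (adjusted p = 0.000326 and 0.000367) and edgeR called 0 of the 4. A limma fit of all 24 libraries called Klf4 and Myc (adjusted p = 0.0140 and 0.0793). Limma with a replicate block called Pou5f1, Klf4 and Myc lower (adjusted p = 0.0198, 9.57e-07 and 2.04e-07). Of 11 alternative fits, 4 called Klf4, 4 called Myc and 2 called Pou5f1. Without day 5 IFNγ replicate 1, limma called Pou5f1, Klf4 and Myc (adjusted p = 0.0682, 0.00583 and 0.00418).

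At day 7, after IFNγ had been withdrawn, Sox2 was higher in every treated fraction and Myc lower in every treated fraction. In the X-GFP negative fraction, where 61.9% of all genes were called, Sox2 counts were 6995 and 7261 against 4090 and 5076 in controls (0.65, 95% interval 0.43 to 0.86, adjusted p = 0.000388). Myc counts were 2509 and 3539 against 4100 and 5061 (-0.61, adjusted p = 0.00694) and Pou5f1 counts 16780 and 17801 against 22417 and 23807 (-0.42, adjusted p = 0.000385). Klf4 counts of 4983 and 5548 overlapped the controls at 5312 and 6223 (-0.13, 95% interval -0.32 to 0.06). Klf4 was called lower without X-GFP negative control replicate 1 or IFNγ replicate 2 (adjusted p = 0.0623 and 0.0703). Rescaling every library to the same total moved the Pou5f1 value by 0.16 in this comparison and the share of calls that were higher from 50.3% to 66.3%. The Klf4 value went from -0.13 to 0.028, while the calls of the other 3 members kept their direction.

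In the medium fraction all 4 members were called, where 62.9% of all genes were. Sox2 counts were 12567 and 12775 against 7327 and 8337 (0.70, 95% interval 0.54 to 0.85, adjusted p = 2.19e-05). Myc counts of 2092 and 3079 stood at a fitted fold of 0.488 against 4937 and 5483 in controls (-1.04, 95% interval -1.35 to -0.72, adjusted p = 0.000174). Pou5f1 counts were 15847 and 17639 against 22692 and 22808 (-0.44, adjusted p = 0.000309). Klf4 was higher by only 0.15 (9169 and 9095 against 8111 and 8409, adjusted p = 0.0481). This Klf4 call was lost with DESeq2 (adjusted p = 0.251), with edgeR (0.111), in the fit of all 24 libraries (0.433) and without medium control replicate 1 or 2 (0.356 and 0.174).

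In the high fraction 2 of the 4 members were called, where 38.5% of all genes were. Sox2 counts were 13738 and 13364 against 10874 and 12024 (0.24, 95% interval 0.09 to 0.40, adjusted p = 0.0242), a call that was lost without X-GFP high control replicate 1 (adjusted p = 0.399). Myc counts were 2335 and 2981 against 3627 and 3806 (-0.49, adjusted p = 0.00320), not called in the fit of all 24 libraries (adjusted p = 0.160). Pou5f1 counts of 19234 and 20598 overlapped the controls at 20705 and 20560 (-0.05, 95% interval -0.21 to 0.10), and Klf4 counts were 12808 and 12043 against 11527 and 10704 (0.16, adjusted p = 0.110, and 0.00752 without high IFNγ replicate 2). With 2 libraries against 2, an exact permutation test of a lone value cannot go below p = 0.33, so all calls here rest on the variance that limma shares across genes.

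Other cell markers moved with IFNγ in the same fractions, where 61.9% (negative), 62.9% (medium) and 38.5% (high) of all genes were called. The fibroblast marker sum was 5065 and 4443 in negative controls against 1035 and 1025 after IFNγ, 5612 and 5042 against 690 and 743 in the medium and 2614 and 2125 against 612 and 686 in the high fraction. None of the 8 genes was at 0 in any of these populations, 2 to 5 of the 8 had a mean over 100, and most of the control sums was Dcn, a collagen-binding proteoglycan gene, with 4300 and 3801, 5020 and 4472, and 2176 and 1668 counts in the negative, medium and high controls. Dcn was lower after IFNγ (-4.01, -4.56 and -4.74 on the log2 scale), but the 8 genes did not move together. In the negative fraction Pdgfrb was higher and Dcn lower, in the medium fraction 2 (Pdgfrb and Col3a1) were higher and 4 lower, and in the high fraction Thy1 was higher and Dcn lower. Without medium control replicate 2 or medium IFNγ replicate 2, Col3a1 was not called in the medium fraction. The Y-linked sum stayed at 1.03 to 12.5. The ESC marker sum was 33216 and 36644 against 56084 and 51640 in the negative, 63155 and 64290 against 113954 and 105593 in the medium and 119491 and 120314 against 148011 and 135701 in the high fraction. Of the 8 ESC markers 7, 8 and 5 were called higher and 0 lower in these fractions, and in the high fraction 2 without high control replicate 1, 3 without high control replicate 2 and 1 in the fit of all 24 libraries. The NPC marker sum was 5198 and 5115 in negative controls against 5794 and 5950 after IFNγ, with 3 of 8 (Sox1, Slc1a3 and Hes5) higher and 0 lower. It was 3316 and 3592 against 2147 and 2434 in the medium and 2139 and 2107 against 1421 and 1504 in the high fraction, with Slc1a3 higher and Nes and Pax6 lower in both. The Pax6 calls were lost without medium control replicate 1 and without high control replicate 1 or high IFNγ replicate 2. The part of these shifts in the member results was not tested.

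**Figure D3:**
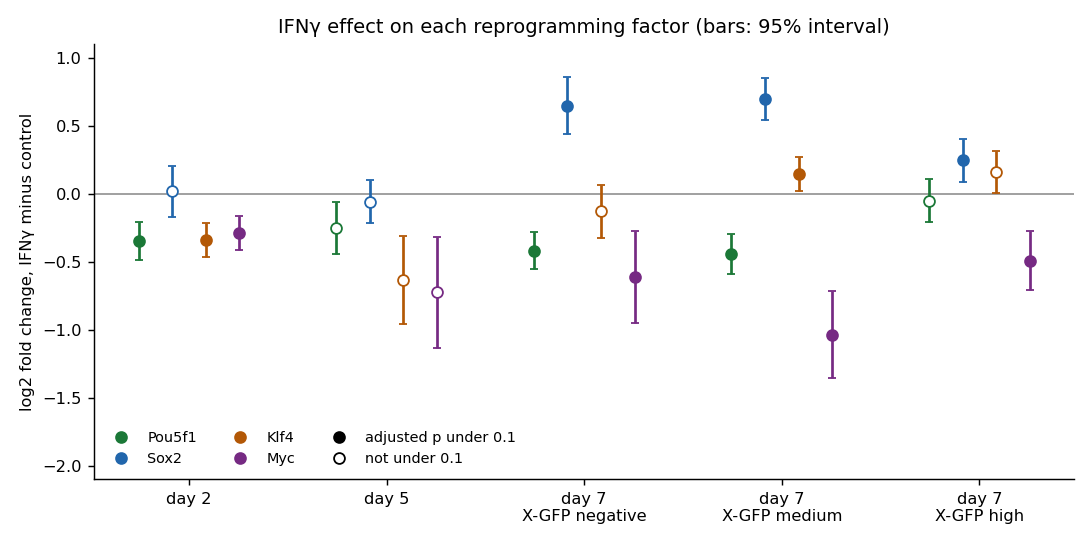
IFNγ-treated minus control difference of mean log2(normalized count + 1) for each member at days 2 and 5 and in the 3 day 7 fractions, with 95% intervals from limma. Sox2 lay near 0 at days 2 and 5 and at 0.65, 0.70 and 0.24 in the negative, medium and high fractions, while Myc lay below 0 in all 5.

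Whether the IFNγ difference itself changed between populations was tested as a difference of differences for all 10 pairs of the 5 populations. Of these pairs, 3 (day 5 against day 2, medium against negative, high against medium) were planned and 7 were added after the values had been seen. The pairs share libraries and are given side by side. Sox2 was called in 7 of the 10 pairs, Klf4 in 5, Pou5f1 in 3 and Myc in 1. Between day 5 and day 2 no member was called by limma, where 0.676% of all genes were, nor between medium and negative, where 15.7% were. DESeq2 and edgeR called 0 of the 4 in both of these pairs as well. At an unadjusted p under 0.05 there were 0 of the 4 for day 5 against day 2 and 1, Klf4, for medium against negative (0.27).

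For Sox2, the IFNγ difference in the negative fraction exceeded that of day 2 by 0.63 (adjusted p = 0.00792, with 42.9% of all genes called) and that of day 5 by 0.70 (adjusted p = 0.00429, 40.3%). In the medium fraction it exceeded day 2 by 0.68 (adjusted p = 0.00187, 43.4%) and day 5 by 0.75 (adjusted p = 0.000876, 38.7%). In the high fraction it exceeded day 5 by 0.30 (adjusted p = 0.0592, 23.4%) and was below the medium fraction by 0.45 (adjusted p = 0.0265, 12.8%) and below the negative fraction by 0.40 (adjusted p = 0.0563, 22.8%). The Sox2 difference was thus larger in the negative and medium fractions than at either early day, and smaller in the high fraction than in the other fractions. Day 2 against high was not called (0.23, adjusted p = 0.197). High against medium was not called without medium control replicate 1 or high control replicate 2 (adjusted p = 0.138 for each). High against negative was lost without negative control replicate 1, negative IFNγ replicate 2, high control replicate 2 or high IFNγ replicate 2 (adjusted p = 0.182, 0.128, 0.212 and 0.106), and high against day 5 without day 5 control replicate 2, day 5 IFNγ replicate 2, high control replicate 1 or either high IFNγ library (adjusted p from 0.105 to 0.251). With no minimum mean both were lost (adjusted p = 0.154 and 0.107), and in the fit of all 24 libraries high against day 5 was (adjusted p = 0.151).

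For Klf4, the IFNγ difference in the medium fraction exceeded that of day 2 by 0.49 (adjusted p = 0.000894) and that of day 5 by 0.78 (adjusted p = 0.00740). In the high fraction it exceeded day 2 by 0.50 (adjusted p = 0.00439, where 23.5% of all genes were called) and day 5 by 0.80 (adjusted p = 0.0157), and in the negative fraction it exceeded day 5 by 0.51 (adjusted p = 0.0662). The last of these was lost without day 5 control replicate 1, day 5 IFNγ replicate 2, negative control replicate 1 or negative IFNγ replicate 2 (adjusted p = 0.156, 0.161, 0.226 and 0.196), and with no minimum mean (0.122). Klf4 in negative against day 2 was not called, but was after rescaling (0.38, adjusted p = 0.0347). The treated libraries lay below the controls at days 2 and 5 and above them in the medium and high fractions. For Pou5f1, the high fraction exceeded day 2 by 0.30 (adjusted p = 0.0424), the medium fraction by 0.39 (adjusted p = 0.0315) and the negative fraction by 0.37 (adjusted p = 0.0188). High against medium was called in 11 of 15 alternatives for Pou5f1, and not without medium control replicate 1 or 2 or high control replicate 2 (adjusted p = 0.136, 0.121 and 0.137). High against day 2 was lost without day 2 control replicate 1, day 2 IFNγ replicate 2 or either high control library (adjusted p = 0.118, 0.149, 0.133 and 0.116). High against negative was lost after rescaling to the same total (0.20, adjusted p = 0.177). In the fit of all 24 libraries none of these Pou5f1 differences was called (adjusted p = 0.303 for day 2, 0.262 for medium and 0.212 for negative), nor was that of Klf4 in high against day 2 (adjusted p = 0.110). For Myc, the medium fraction was 0.75 below day 2 (adjusted p = 0.0180, and 0.117 in the fit of all 24 libraries), and the other 9 pairs were not called.

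The readouts of OCT4 and SOX2 were followed in 7 genes listed as their targets (Fgf4, Utf1, Fbxo15, Nanog, Lefty1, Spp1 and Zfp42). Whether each carries a joint site was not tested. In control cells 6 of the 7 rose from NPCs to day 2, with a median of 4.51 against -0.08 over all genes tested, and Spp1 did not pass. Of all genes, 69.2% were called in this step. Even so, the median level of the 7 at day 2 was 3.50% of ESCs, while Pou5f1 itself stood at 34.6% and Sox2 at 66.9%. At day 5, with Pou5f1 at 100.4% and Sox2 at 78.3%, the median of the 7 was 27.7%, and 62.1% in control high cells at day 7. Fgf4, a growth factor gene with a classic composite enhancer, had counts of 33.6 and 26.8 at day 2 and of 1840 and 1934 at day 5. In control high cells they were 6337 and 6929, against 6776 and 6847 in ESCs. Utf1 passed the ESC level by day 5, with 1177 and 1236 counts against 647 and 556.

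**Figure D4:**
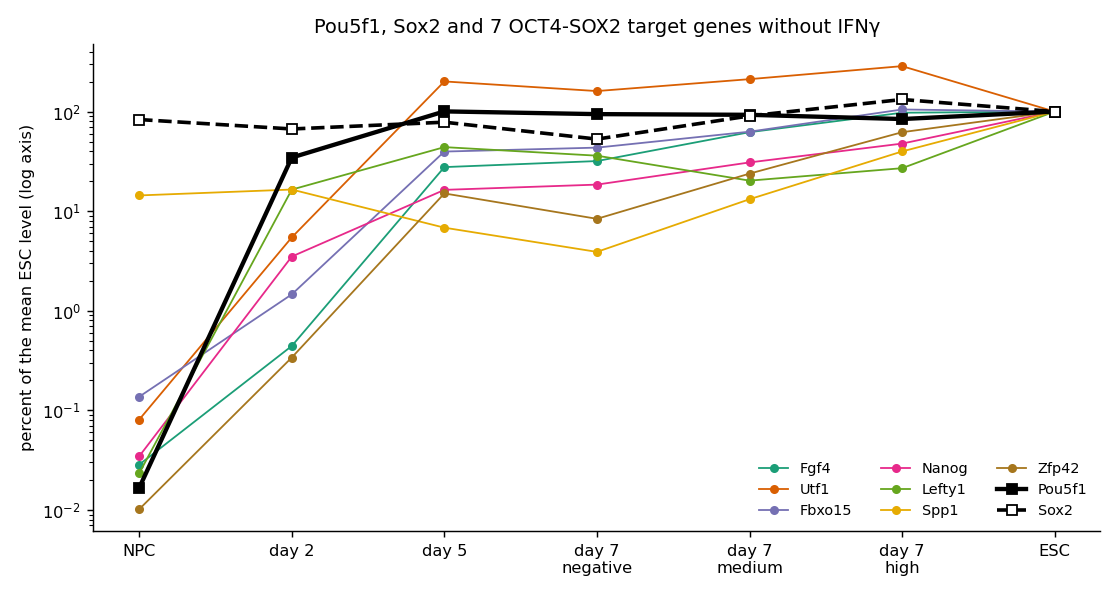
Mean normalized count as a percent of the ESC mean (log axis) along the control trajectory for Pou5f1, Sox2 and the 7 genes listed as OCT4-SOX2 targets. Pou5f1 reached 100.4% at day 5, where the median of the 7 genes was 27.7%, and Utf1 lay above 100% from day 5 on.

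After IFNγ, limma, DESeq2 and edgeR each called 0 of these 7 at day 2, with 1 at an unadjusted p under 0.05 (median -0.30 against 0.0054 over all genes), and 1, Lefty1, was lower at day 5 (-1.11), which was not called without day 5 control replicate 1 or 2 (adjusted p = 0.139 and 0.172). In the day 7 negative fraction, where 61.9% of all genes were called, 5 of 7 were higher (7 of 7 after rescaling to the same total, median 0.49 against 0.02). Zfp42, a pluripotency zinc-finger gene, had 2777 and 2917 counts against 1356 and 1848 in controls (0.85), and Lefty1, a Nodal inhibitor, 5875 and 5020 against 2033 and 2321 (1.32). In the medium fraction, where 62.9% of all genes were called, 6 of 7 were higher and Lefty1 lower (median 0.74 against 0.04). In the high fraction, where 38.5% were, 5 were higher and Lefty1 lower (median 0.26 against 0.03). Without high control replicate 1 or 2, 3 rather than 5 were higher there, DESeq2 called 4 higher and 0 lower, and the fit of all 24 libraries 1 higher and 0 lower. The Lefty1 call in the high fraction was also lost without high control replicate 2 (adjusted p = 0.368). In all 3 fractions treated Sox2 counts were higher, and treated Pou5f1 counts were lower or overlapping. Their median relative to ESCs was 53.2% in the treated medium fraction against 30.9% in its control, and 89.5% in treated high cells against 62.1%.

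Myc was examined with the other genes of its network, because MXD and MXI1 proteins compete with MYC for MAX. Its paralogue Mycn moved against it in several comparisons, but both rose from day 2 to day 5 in control cells. Both also had lower counts in the day 7 negative control fraction than at day 5. Mycn counts were 3058 and 3037 in ESCs and 2163 and 1568 in NPCs, fell to 214 and 225 at day 2 (-3.06, adjusted p = 7.33e-05), and rose again to 1062 and 1496 at day 5 and 2258 and 2253 in control high cells. From the medium to the high fraction Mycn rose by 0.71 (adjusted p = 8.55e-08) as Myc fell. Mycl behaved likewise over NPCs and day 2, from 3318 and 2354 to 255 and 284 (-3.37). After IFNγ Mycn was higher at day 2 (0.71, not called without day 2 control replicate 1, adjusted p = 0.104) and in the negative and medium fractions (1.31 and 0.78), all of which had lower Myc. In the high fraction its 0.18 was called by limma in the comparison alone, but not by DESeq2 (adjusted p = 0.232), edgeR (0.110), after rescaling (0.123), in the fit of all 24 libraries (0.368), or without high control replicate 1, high control replicate 2 or high IFNγ replicate 1 (0.341, 0.298 and 0.348). In the negative fraction Mycn counts were 1825 and 1708 against 667 and 759. Mycl was higher there too, with 881 and 866 counts against 349 and 344 (1.33).

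After IFNγ, 61.9%, 62.9% and 38.5% of all genes were called in the day 7 negative, medium and high fractions. Of the 10 network genes, 2 were higher and 6 lower in the negative, 3 and 5 in the medium and 1 (Mycn) and 4 in the high fraction. Their medians were -0.23, -0.20 and -0.03, against 0.02 to 0.04 over all genes. The fall was led by Mxd1, a MAX partner that represses E-box genes. Its counts were 580 and 501 against 2785 and 2440 in negative controls (-2.27), and 400 and 446 against 1422 and 1425 in the medium fraction (-1.75). In control cells Mxd1 had risen from 490 and 416 at day 5 to that level in the day 7 negative fraction (2.53, adjusted p = 1.66e-05), the same step in which Myc fell.

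**Figure D5:**
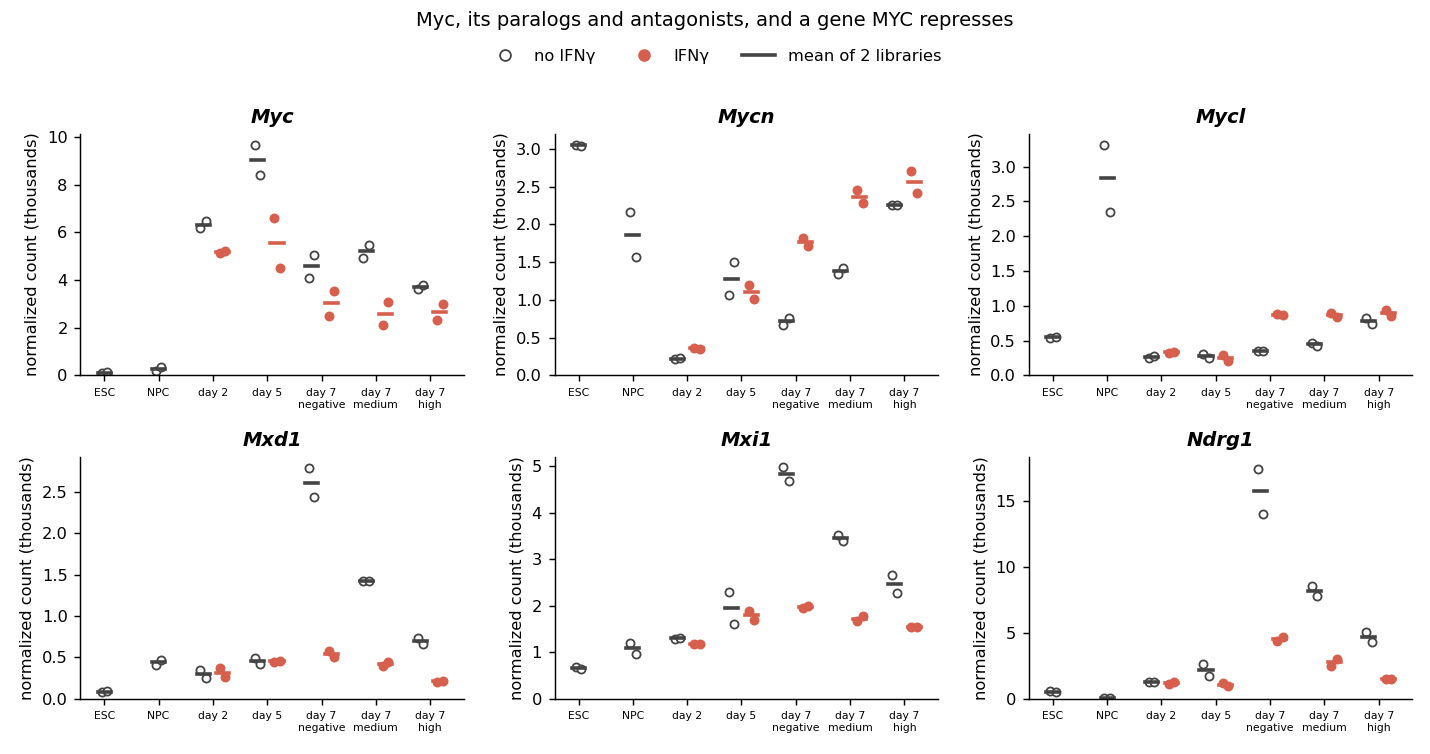
Normalized counts of Myc, Mycn, Mycl, Mxd1, Mxi1 and Ndrg1 in each library by population. Mycn dropped to 214 and 225 at day 2 where Myc rose, and Mxd1 and Ndrg1 were higher in the day 7 negative control libraries than in the IFNγ-treated ones.

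A list of 12 genes that MYC is known to activate, mostly of ribosome biogenesis and nucleotide or polyamine synthesis, was counted over the same steps. From NPCs to day 2, 10 of 12 were higher and 1 (Cdk4) lower (median 0.68 against -0.08 over all genes), and 9 higher and 1 lower from day 2 to day 5 (0.43 against 0.00075). In these steps 69.2% and 70.6% of all genes were called. From day 5 to the day 7 negative fraction, where 63.7% of all genes were called, 10 of 12 were lower and Ldha was higher (median -0.79 against 0.04). Ncl, which encodes nucleolin, had counts of 29316 and 35006 at day 5, between 7350 and 7836 at day 2 and 5102 and 5380 in the day 7 negative fraction. Myc itself was highest at day 5 as well. From the negative to the medium control fraction 10 of 12 were higher and 0 lower, where 47% of all genes were called. Myc was not called in that step (0.19, adjusted p = 0.104 by limma). From the medium to the high fraction and in the IFNγ-treated day 7 fractions, however, these genes and Myc parted. All 12 rose from the medium to the high fraction (median 0.46), where Myc fell by 0.49 and 64.1% of all genes were called. After IFNγ, 9, 9 and 8 of 12 were higher in the negative, medium and high fractions (medians 0.39, 0.38 and 0.25), where Myc was lower. Of all genes, 61.9%, 62.9% and 38.5% were called there. At day 2 of IFNγ 3 of 12 were lower and none higher, and at day 5 limma and edgeR called 0 of 12, with 8 at an unadjusted p under 0.05, while DESeq2 called 5 lower. Limma called 8.49% and 2.18% of all genes at these days. Leaving out day 5 IFNγ replicate 1 gave 7 lower at day 5, and leaving out high control replicate 1 gave 4 rather than 8 higher in the high fraction.

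Genes that MYC is known to repress moved opposite to that list at day 7, but not by day 2. From NPCs to day 2, where Myc rose, 2 of the 3 were higher and 0 lower, with 69.2% of all genes called. From day 2 to day 5, where Myc rose again, 1 was higher and 2 lower, with 70.6% called. Ndrg1, Cdkn1a and Cdkn2b were all lower in each IFNγ-treated day 7 fraction (medians -1.64, -1.33 and -1.50). All 3 were higher in the day 7 negative fraction than at day 5 in control cells (median 1.67). In these comparisons, in the same order, 61.9%, 62.9%, 38.5% and 63.7% of all genes were called. Ndrg1, a growth-arrest gene, had counts of 17475 and 14046 in the negative control fraction against 4398 and 4656 after IFNγ (-1.79), 2601 and 1742 at day 5, and 589 and 470 in ESCs. Cdkn1a, a cell-cycle inhibitor, had 7128 and 6183 against 2215 and 2045 (-1.64). Both were lower after IFNγ in a fraction where Myc was lower too.

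The relatives of the other factors were counted in the same way. Of the KLF genes other than Klf4, 6 of 13 tested rose and 2 fell from NPCs to day 2 (median 0.55 against -0.08 over all genes), and 9 rose and 1 fell from day 2 to day 5 (0.34 against 0.00075). These counts, 8 and 10 of 13 in either direction, stand beside 69.2% and 70.6% of all genes called, and without day 2 control replicate 1 only 1 fell by day 2. Klf2, another naive pluripotency factor, came later than Klf4: its counts were 30.6 and 25.8 at day 2, 718 and 1117 at day 5, 3806 and 4202 in control high cells and 4616 and 4604 in ESCs. It rose with each X-GFP step (1.23 and 1.29), as Klf4 did. After IFNγ 5 of 14 KLF genes were higher and 7 lower in the medium fraction (median -0.23 against 0.04, with 62.9% of all genes called), among them Klf5 (0.96), which shares targets with Klf4 in ESCs, and Klf10 (-1.03).

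Of the SOX genes other than Sox2, 10 of 12 tested fell from NPCs to day 2 and 9 of 12 from day 2 to day 5 (medians -1.21 and -3.02, against -0.08 and 0.00075 over all genes), led by neural genes such as Sox3 (-4.36) and Sox1 (-2.81), while Sox2 stayed within 4090 to 8337 counts in the control libraries from NPCs to the day 7 medium fraction. In these steps 69.2% and 70.6% of all genes were called in either direction. Sox15 rose from day 2 to day 5 (5.57). In the IFNγ-treated negative fraction 10 of 15 SOX genes were higher and 3 lower (median 0.89 against 0.02), where 61.9% of all genes were called and Sox2 was higher as well. They included Sox17, an endoderm gene, with 140 counts in each treated library against 9.87 and 16.1 (3.37), and the neural Sox1 (1.76). Of the POU genes other than Pou5f1, 8 of 12 tested fell from NPCs to day 2, such as Pou3f1 and Pou3f3 (-3.12 and -2.97), and 3 rose (median -1.41 against -0.08, with 69.2% of all genes called).

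LIF and IFNγ were the cytokines in the medium, and their pathway genes gave a check of the treatment. Limma called 8.49% and 2.18% of all genes at days 2 and 5 of IFNγ. In the day 7 negative, medium and high fractions it called 61.9%, 62.9% and 38.5%. Of 6 genes of LIF receptor signalling and the IFNγ response, 4 were higher and 0 lower at day 2 of IFNγ (median 0.65), and 3 were higher at day 5, where leaving out day 5 IFNγ replicate 1 gave 5. In the day 7 fractions 3 were higher in negative (5 after rescaling to the same total), 5 in medium and 2 in high cells, with Jak1, a kinase of both receptors, lower in each. Without high control replicate 1, 1 was higher and 0 lower in the high fraction, and a limma fit of all 24 libraries also called 1 higher there. Irf1, a transcription factor gene induced by IFNγ, had counts of 7947 and 7484 against 424 and 327 at day 2 (4.37). In the day 7 high fraction they were 1120 and 1171 against 869 and 969 (0.32). Lifr, the LIF receptor, was higher after IFNγ in the negative (1.42), medium (1.26) and high (0.41) fractions, the fractions in which Sox2 was higher.

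Sp3, whose locus carries the cassette and which encodes a GC-box factor, was followed as the host gene. Whether its counts follow those of the cassette was not tested. Sp3 counts were 2650 and 2549 at day 2, close to the 2746 and 2696 of NPCs. In day 7 control cells they were 4891 and 4797 in the negative, 3925 and 3880 in the medium and 3329 and 3097 in the high fraction, a fall with X-GFP. After IFNγ they were lower in the negative (2953 and 3067, -0.69, adjusted p = 2.28e-05), medium (2910 and 3051, -0.39) and high (2679 and 2704, -0.25, adjusted p = 0.0175) fractions, and Sp3 was not called at days 2 and 5. The call in the high fraction was lost without high control replicate 1 (adjusted p = 0.256). Myc was lower in the same 3 treated fractions. From day 5 to the day 7 negative control fraction, however, Sp3 was called higher while Myc fell (-0.98), with 63.7% of all genes called.

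Genes with the pattern most like each member were named by Pearson's r of log2 means over the 12 populations among 12021 genes with a mean count of at least 100 over all libraries, as a description in which populations share libraries and depth. For Pou5f1 they were Urah (0.993), Oas1c (0.991) and Laptm5 (0.989), and for Sox2 Smpdl3b (0.987), Tmem201 (0.963) and Zfp229 (0.950). For Klf4 they were Fbxo17 (0.974), Pou2f3 (0.970) and Cdk18 (0.965), and for Myc Krt6a (0.980), Slco2a1 (0.971) and Mrgprf (0.968). Without ESCs and NPCs, none of the 3 was still among the 3 nearest for Pou5f1, Klf4 or Myc, and 1 was for Sox2. Among the members themselves, Pou5f1 and Klf4 were most alike (0.962, or 0.42 without ESCs and NPCs), and without those populations Sox2 and Klf4 were (0.817), while Sox2 and Myc ran in opposite directions (-0.665).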

How the data were processed

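RNA was measured in 24 libraries of 12 populations, as stranded total RNA depleted of ribosomal RNA. Per the labels and the study's methods, the authors aligned paired reads with STAR and WASP to mm10 with strain variants masked and counted genes with HTSeq 0.6.1. The deposited values are those read counts divided by DESeq2 size factors, a signal scaled per library. Whole reads were recovered from 100% of values. A second deposited table, on the musculus X chromosome, was not used here. Identifiers were named by GENCODE vM21, which held 95.0% of them. Genes with a mean over 10 in a comparison were tested with limma 3.58.1 (R 4.3.3) on log2(normalized count + 1) between the 2 groups compared, with Benjamini-Hochberg adjustment and a threshold of 0.1. Other settings tried were a replicate block, a pseudocount of 0.1, no minimum mean, rescaling to equal totals, a joint fit of all 24 libraries, DESeq2 1.42.0 and edgeR 4.0.16 on the recovered reads, and each library left out. The code was tested on data simulated with known changes for IFNγ at day 2, IFNγ in the medium fraction and the IFNγ effect in high against medium. Of limma's calls 9.45%, 5.10% and 19.7% were false, the last above the threshold of 0.1. It recovered 72%, 86.7% and 70% of log2 changes of 1, and 43.9%, 67.4% and 44.9% of smaller ones. For IFNγ at day 2, false calls were 14.7% with edgeR and 16.4% with DESeq2. Named genes were the 4 members and, per list and comparison, the 2 largest called changes in each direction with a group mean of at least 100, together with genes whose counts illustrate a list, chosen after their values were seen. Similar transcripts were found with BLAST 2.17.0. The members and all gene lists were chosen with earlier results of these data known, so no list is independent support. A gene of the cytokine pathway list is not reported here, and that list was counted without it.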

Additional observations from a re-analysis of the deposited data

Results flagged for a closer look

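The IFNγ difference of a member was called unequal between populations in 16 of the 40 member and pair tests (4 members, 10 pairs). Values are the IFNγ difference in the first population minus that in the second, on the log2(normalized count + 1) scale from limma, and the pairs share libraries. For Sox2 they were 0.63 for negative against day 2, 0.68 for medium against day 2, 0.70 for negative against day 5, 0.75 for medium against day 5, 0.30 for high against day 5, -0.45 for high against medium and -0.40 for high against negative. For Klf4 they were 0.49 for medium against day 2, 0.50 for high against day 2, 0.51 for negative against day 5, 0.78 for medium against day 5 and 0.80 for high against day 5. For Pou5f1 they were 0.30 for high against day 2, 0.39 for high against medium and 0.37 for high against negative. For Myc the difference was -0.75 for medium against day 2, a call that was lost in 1 of 15 alternatives. Of the 16 calls, those of high against medium are the ones from pairs planned at the outset, and the others come from pairs added later. The fitted direction of the IFNγ difference was opposite in the populations compared for 3 of the 7 Sox2 pairs and 4 of the 5 Klf4 pairs. These Sox2 pairs all involve day 5, where the Sox2 difference was near 0 and not called (-0.06, adjusted p = 0.668). Klf4 was not called at day 5 or in the high fraction (adjusted p = 0.102 and 0.110).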

How the results depend on the processing

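The cassette and the endogenous genes cannot be told apart in gene counts, each group has 2 libraries, and a lone library assumed to vary like the others decided several calls. Of the values of members under alternatives other than leaving out a library, 595 kept their direction and their side of the threshold, 27 lost a call, 21 gained a call and 5 changed direction. With a library left out these were 449, 39, 21 and 19. The cause was not tested.

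The number of members called changed as follows. In 1 fit of all 24 libraries, IFNγ at day 2 called 0 (3 in the comparison alone), IFNγ at day 5 called 2 (0), IFNγ in the high fraction 1 (2), medium to high 2 (4) and the IFNγ effect in high against medium 1 (2), and IFNγ in the medium fraction and ESCs against control high 3 each (4). DESeq2 called 2 members for IFNγ at day 5, and DESeq2 and edgeR each called 3 for NPC to day 2 (4), for IFNγ in the medium fraction (4) and for negative to medium (2). Rescaling called 3 for day 2 to day 5 (4), ESCs against NPCs (4) and negative to medium (2), and 4 for day 5 to negative (3). With no minimum mean, NPC to day 2 and ESCs against NPCs called 3 (4). Leaving out a library gave 1 to 3 members for IFNγ at day 2, 0 to 3 at day 5, 3 to 4 in the negative and in the medium fraction, 1 to 3 in the high fraction, 3 to 4 for NPC to day 2 and for day 2 to day 5, 3 for day 5 to negative, 2 to 3 for negative to medium, 4 for medium to high and for ESCs against either high fraction, 2 to 4 for ESCs against NPCs, and 0 to 2, 0 to 1 and 0 to 3 for the IFNγ effects in day 5 against day 2, medium against negative and high against medium.

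Rescaling to the same total turned the direction of Klf4 under IFNγ in the negative fraction (0.028), Pou5f1 from negative to medium (0.052), and, among IFNγ effects, Sox2 in medium against negative (-0.11), Pou5f1 in negative against day 2 (0.099) and Myc in high against negative (-0.052), none of which was called by either scaling. It shifted the Pou5f1 value by 0.16 for IFNγ in the negative fraction, -0.13 for day 2 to day 5 and -0.12 for ESCs against NPCs. The Pou5f1 shift was -0.16, 0.17, 0.15 and -0.17 for the IFNγ effects in medium against negative, negative against day 2, negative against day 5 and high against negative. The share of calls that were higher went from 50.3% to 66.3% for IFNγ in the negative fraction, from 46.5% to 60.2% for negative to medium, and for those 4 effects from 46.6% to 12.2%, 46.2% to 66.3%, 44.2% to 63.0% and 41.4% to 13.9%. Leaving out a library turned uncalled values within these ranges: Sox2 under IFNγ at day 2 -0.079 to 0.12, Pou5f1 from negative to medium -0.066 to 0.021, and among IFNγ effects Sox2 in day 5 against day 2 -0.17 to 0.021, Pou5f1 and Sox2 in medium against negative -0.10 to 0.052 and -0.10 to 0.21, Klf4 in high against medium -0.037 to 0.069, Myc in negative against day 5 -0.16 to 0.39, Myc in high against day 5 -0.042 to 0.51 and Myc in high against negative -0.13 to 0.37.

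Replicate numbers are shared between groups, and whether a shared number marks a shared culture is not given in the sources used here. Same-numbered libraries deviated together with correlations of -0.12 (NPC to day 2) to 0.31. The highest were those of IFNγ at day 2 (0.31) and at day 5 (0.26). A replicate block called 3 members for IFNγ at day 5 and 2 for the IFNγ effect in medium against negative (0 without it). It also called Klf4 under IFNγ in the negative (lower, adjusted p = 0.0160) and high (higher, 0.0679) fractions, Myc from negative to medium (0.000129) and the Myc effect in high against medium (0.0243), and, of the pairs added later, the Klf4 and Myc effects in negative against day 2 (0.0616 and 0.0918) and Klf4 in high against negative (0.0737), and lost Sox2 from NPC to day 2 (0.115). It called 4995 genes in place of 1332 for IFNγ at day 2 and 3379 in place of 330 at day 5. Over the IFNγ effects in day 5 against day 2, medium against negative and high against medium, the block multiplied the calls by 1.59, 1.71 and 1.54. For NPC to day 2, where the correlation was -0.12, a block with crossed numbers, added after seeing the data, called 5163 genes higher and 6136 lower, against 4977 and 5921 with no block. With no minimum mean, limma called 481 genes higher and 212 lower for IFNγ at day 2 (790 and 542 with it) and 134 and 7 at day 5 (249 and 81). At day 5 the fit of all 24 libraries called 1422 and 1078, DESeq2 556 and 356, and edgeR 257 and 84. For the 3 planned IFNγ effects the counts went from 32 and 75 to 151 and 165 (all 24 libraries) and 121 and 139 (DESeq2) in day 5 against day 2, from 1142 and 1307 to 681 and 867 (no filter), 637 and 928 (all 24 libraries) and 671 and 854 (DESeq2) in medium against negative, and from 736 and 1259 to 309 and 588 (no filter) and 498 and 557 (all 24 libraries) in high against medium.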
